A study of Mus musculus with 9 samples.

Results

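The enzymes that add and remove acetyl and methyl groups on histone lysines were followed in RNA-seq libraries of 3 striatal cell lines. They were chosen by symbol: every listed gene whose symbol starts with Hdac, Sirt, Kat, Kdm or Kmt followed by a digit, together with Crebbp, Ep300, Ezh1, Ezh2, Dot1l, Ehmt1, Ehmt2, Setdb1, Setdb2, Suv39h1 and Suv39h2, less 3 demethylase genes that the rule leaves out. This gave 60 of the 36410 listed genes. The lines are immortalized cells from the striatum of mouse embryos, of the labelled strain C57/BL6. Control cells (STHdhQ7/Q7) carry 7 glutamine codons in exon 1 of huntingtin on both alleles. HD-het cells (STHdhQ7/Q111) carry 7 on 1 allele and 111 on the other, and HD-homo cells (STHdhQ111/Q111) carry 111 on both. The paper presents the 3 lines as knock-in models and gives wild-type embryos as the source of the control cells. Each genotype is 1 line with 3 libraries, which leaves genotype confounded with line. The paper says in general terms that experiments were repeated 3 times or more, but whether the 3 libraries of a line came from separate cultures is not stated for them, so p-values measure the spread between these libraries, which may be technical. Library totals ran from 29507665 to 41197931 counts.

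Acetylation of histone tails, written by acetyltransferases and erased by zinc-dependent deacetylases (the Hdac genes) and NAD-dependent sirtuins, generally accompanies open, transcribed chromatin. Lysine methylation is read by position: methylated H3K4 marks promoters and enhancers, and methylated H3K9 and H3K27 mark silenced chromatin. Mutant huntingtin is known to bind acetyltransferases such as the product of Crebbp, and deacetylase inhibitors have been studied in Huntington disease models.

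Some libraries stood apart from the others of their line. The mean squared difference between 2 libraries, in units of counting variance, was 2.14 for control 1 and 2 but 10.3 and 11.1 for the pairs with control 3. In HD-het cells it was 6.19 for replicates 1 and 2 and 16.7 and 20.4 for the pairs with replicate 3. HD-homo libraries were the most spread, with 21.5 for replicates 1 and 3 and 26.4 and 38.0 for the pairs with replicate 2. The counts of enzymes past the threshold are therefore also given without control 3, HD-het 3 and HD-homo 2, a choice made after seeing the data.

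Huntingtin itself, the gene named in the labels, differed in level between the lines. Htt measured 104, 103 and 93.0 CPM in control libraries, against 61.8, 64.0 and 61.1 for HD-het and 19.7, 21.7 and 19.2 for HD-homo. The libraries of the 3 lines did not overlap, with the highest level in control and the lowest in HD-homo cells (log2 fold change -2.31, standard error 0.0694, adjusted p = 3.42e-10 for HD-homo against control, and -0.68, adjusted p = 4.39e-06, for HD-het against control, quasi-likelihood test of edgeR, Benjamini-Hochberg adjusted). The counts do not separate the alleles, so these levels do not check the glutamine numbers of the labels.

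The lines also differed in markers of cell type. Of 13 markers of striatal projection neurons, 5 stayed under 10 counts in all libraries, among them the dopamine receptor genes Drd1, at 0, and Drd2, and the most abundant marker was Foxp1, which other cells also express. Their summed level was 101, 103 and 91.8 CPM in control libraries, against 120.3, 121 and 122 for HD-het and 170.3, 164 and 185 for HD-homo. Most of it was Foxp1, with means of 93.8 CPM (control), 114 (HD-het) and 168 (HD-homo), so the sum follows this gene rather than the list. Over the 6 markers tested, the median log2 fold change against control was -0.23 for HD-homo and 0.099 for HD-het. At an adjusted p under 0.05 in the same test, 2 rose and 0 fell in HD-homo, and 3 rose and 2 fell in HD-het. The label striatal is thus not matched by the defining receptors of mature projection neurons. The summed level of 8 neural progenitor markers was 731, 735 and 693 CPM in control libraries, against 1011, 995 and 974 for HD-het and 81.3, 84.4 and 93.6 for HD-homo, with Nes, an intermediate filament gene of progenitors, as the most abundant gene in control and HD-het cells. The progenitor sum was lowest in HD-homo cells, whereas Dlx1 and Dlx2 of this list were highest there. The summed level of 9 fibroblast and mesenchymal markers was 6151, 6019 and 4852 CPM in control libraries, against 16552, 15408 and 14676 for HD-het and 6896, 6564 and 7141 for HD-homo, led by the collagen gene Col1a1, with Lum under 10 counts throughout. This sum was highest in HD-het cells, whereas Col1a2, Dcn and Pdgfra of the list were lowest there and highest in HD-homo cells. How far these differences in cell state take part in the results on histone enzymes was not tested, and in such bulk libraries fewer cells of a kind and less RNA per cell cannot be told apart.

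Per length of gene model, 2 deacetylases of class I were the most abundant histone enzymes. Levels between genes are given as CPM per kb of the union of a gene's exons. Hdac1 and Hdac2, the catalytic subunits of the Sin3, NuRD and CoREST corepressors, ranked first and second in all 3 lines, at 48.6 and 45.1 CPM per kb in control cells. The first rank is uncertain, since 35.3% of the 50-base words of Hdac1 transcripts also occur in other genes. Hdac1 and Hdac2 were followed in control cells by Kmt5a, which monomethylates H4K20, at 41.7 CPM per kb. Kat2a, the acetyltransferase of the SAGA complex, came next at 35.2 CPM per kb. The lowest of the 59 ranked genes in control cells were Hdac9, at 0.394, Sirt3, at 0.467, and Sirt5, at 0.577 CPM per kb. Class IIa deacetylases, which shuttle between cytoplasm and nucleus, summed to 34.3 ± 0.449 CPM per kb in control (SD, n = 3), 28.3 ± 0.734 for HD-het and 21.1 ± 0.633 for HD-homo. Most of the class IIa sum in control cells came from Hdac7, at 26.1 CPM per kb. The 10 acetyltransferases summed to 133 ± 1.27 CPM per kb in control, 106 ± 3.20 for HD-het and 127 ± 1.92 for HD-homo. The acetyltransferase sum was thus lowest in the HD-het line, by more than the spread of its libraries. The 14 tested demethylases went the other way, with 109.7 ± 2.16 CPM per kb in control, 125 ± 4.22 in HD-het and 121 ± 1.498 in HD-homo cells. These sums were not tested.

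**Figure D1:**
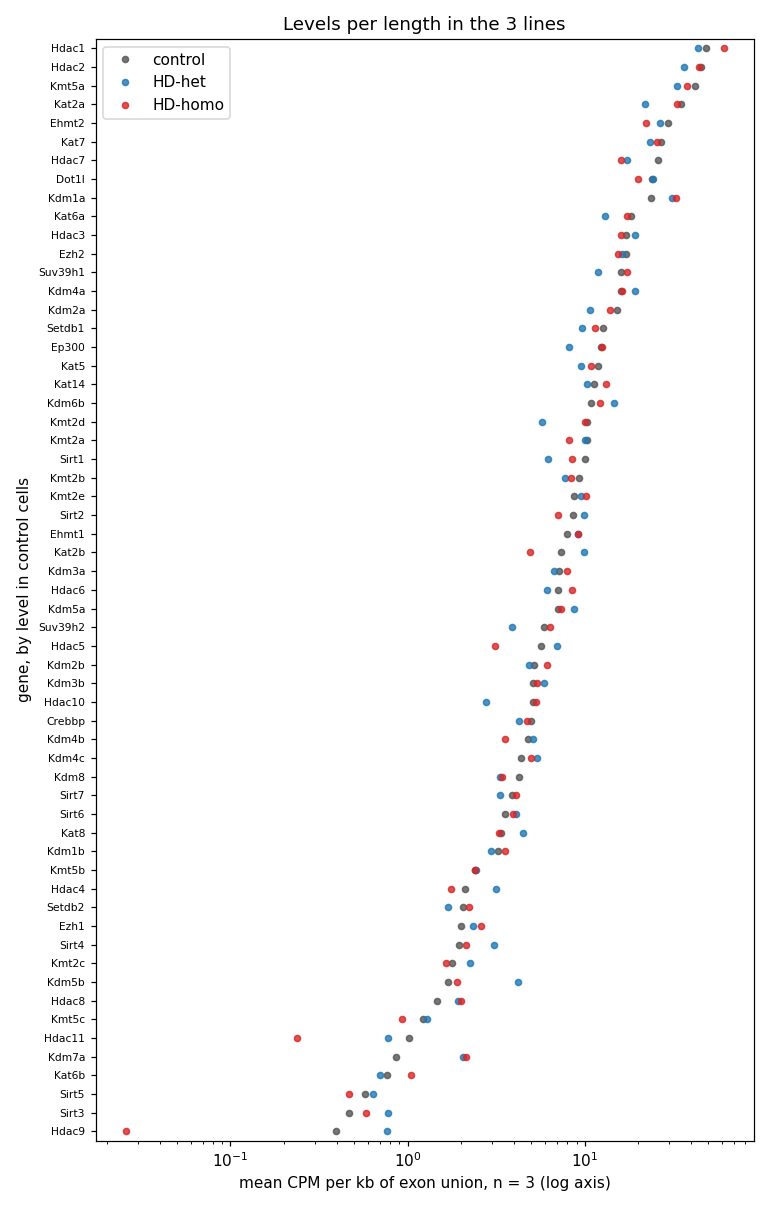
Mean level of 59 histone enzymes in each line (points, n = 3 libraries), as CPM per kb of exon union on a log axis, ordered by the level in control cells. Hdac1, whose count is uncertain, and Hdac2 lead in every line. The HD-homo points of Hdac9 and Hdac11 lie far below those of the other lines.

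Most histone enzymes differed between lines by small amounts. Of the 60 genes, 59 passed the filter on low counts and were tested with 13508 genes in all; the exception was Kdm4d, an H3K9 demethylase, with between 1 and 8 counts. An adjusted p under 0.05 in edgeR's quasi-likelihood test, over all tested genes, was taken as the threshold. In HD-homo against control cells 11 enzymes were higher and 14 lower, 25 of 59, where 29.6% of all tested genes were higher and 28.9% lower, 58.6% together. In HD-het against control cells 20 were higher and 22 lower, 42 of 59, against 33.8% and 31.4% of all tested genes, 65.1% together. In HD-homo against HD-het cells 23 were higher and 22 lower, 45 of 59, against 36% and 35.6%, 71.6% together. The count of enzymes in a direction was thus near the share of all genes in the comparisons with HD-het cells, and below it in HD-homo against control cells. Without control 3, HD-het 3 and HD-homo 2 the counts were 11 higher and 15 lower, 22 higher and 20 lower, and 22 higher and 21 lower. Without control 1 or without control 2, 9 enzymes were lower in HD-homo cells than in control.

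Large changes were few. Past the threshold with an absolute log2 fold change of at least 1 were 3 enzymes in HD-homo against control cells, 2 in HD-het against control cells and 4 in HD-homo against HD-het cells, where 19.1%, 18.4% and 24.3% of all tested genes passed. The median absolute log2 fold change of the enzymes was 0.16, 0.31 and 0.30 in the 3 comparisons, against 0.32, 0.40 and 0.46 over all tested genes. The enzymes were measured at a median of 46.2 CPM, against 27.4 CPM for all tested genes. Only 3 enzymes, Ezh2, Kmt5b and Sirt6, were past the threshold in no comparison (all tested genes, 12.4%). Ezh2 is the main catalytic subunit of the Polycomb complex PRC2, and its level was 114 ± 4.74, 108 ± 6.92 and 104 ± 7.05 CPM in the 3 lines, control first (SD, n = 3). Ezh2 did pass as lower in HD-homo cells than in control with a block on the replicate number (adjusted p = 0.0209) and without HD-homo 3, and Sirt6 passed in HD-het cells with the block (adjusted p = 0.0446).

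**Figure D2:**
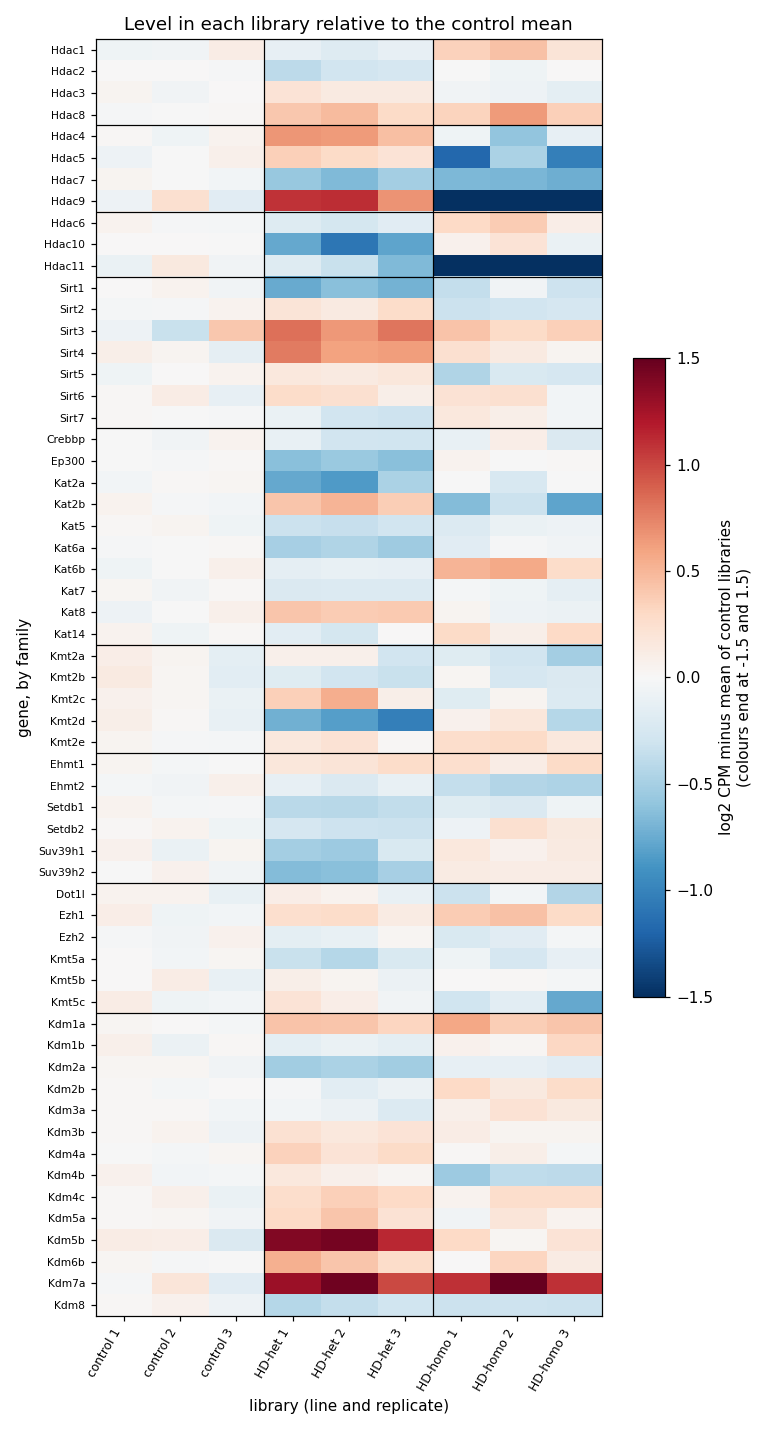
Level of 59 histone enzymes in each of the 9 libraries, as the log2 CPM minus the mean of the 3 control libraries, with families separated by lines. Most cells of the map are pale; the deepest colours are the falls of Hdac9 and Hdac11 in HD-homo libraries, and Kdm5b in HD-het libraries and Kdm7a in both HD lines are among the other deep ones.

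The largest difference was in Hdac9, a class IIa deacetylase that binds the factor MEF2 and is expressed in brain and muscle. The gene lies at chr12:34047580-34917095 on the minus strand of GRCm38. Its counts were 175, 228 and 151 for control, 432, 406 and 305 for HD-het and 10, 17 and 14 for HD-homo libraries. Hdac9 measured 5.44, 6.78 and 5.11 CPM in control libraries, against 12.2, 12.4 and 9.13 for HD-het and 0.307, 0.403 and 0.418 for HD-homo. The level was highest in all HD-het libraries and lowest in all HD-homo libraries, with no overlap between lines. Hdac9 was 15.4-fold lower in HD-homo cells than in control (log2 fold change -3.92, standard error 0.219, adjusted p = 4.71e-08) and 1.94-fold higher in HD-het than in control cells (log2 fold change 0.96, standard error 0.150, adjusted p = 0.000182). Between the HD lines the log2 fold change was -4.88 (adjusted p = 4.42e-09). With only 10 to 17 counts in the HD-homo libraries, the size of its fall is less precise than its direction (95% interval -4.41 to -3.44).

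The second largest fall in HD-homo cells was in Hdac11, the only class IV deacetylase. Hdac11 measured 3.64, 4.31 and 3.75 CPM in control libraries, against 3.41, 3.08 and 2.46 for HD-het and 0.950, 1.02 and 0.775 for HD-homo. The HD-homo libraries lay below all others, and Hdac11 was 4.27-fold lower in HD-homo cells than in control (log2 fold change -2.08, standard error 0.181, adjusted p = 1.97e-06) and 3.26-fold lower than in HD-het cells (log2 fold change -1.70, adjusted p = 7.62e-06). In HD-het against control cells its log2 fold change was -0.39 and missed the threshold (adjusted p = 0.0515), which it passed in 8 of 20 alternative fits. Of the exons of Hdac11, 17.9% overlap genes on the opposite strand, and whether the counting used strand is not given in the sources used here.

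The promoter windows of the enzymes with a log2 change over 1 in an HD line against control differ in CpG content, and are shown for that reason from the RefSeq table of GRCm38.p6, 250 bases before to 50 after a start, 5′ to 3′, with each CpG in capitals. Hdac9 has 2 listed starts.
Hdac9, chr12:34917046-34917345, minus strand: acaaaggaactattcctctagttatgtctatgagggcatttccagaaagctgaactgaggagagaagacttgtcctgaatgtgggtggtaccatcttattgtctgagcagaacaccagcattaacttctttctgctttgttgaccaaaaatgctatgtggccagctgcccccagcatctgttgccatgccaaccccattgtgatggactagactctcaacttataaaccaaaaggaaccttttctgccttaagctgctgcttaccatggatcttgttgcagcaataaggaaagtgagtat
Hdac9, chr12:34528840-34529139, minus strand: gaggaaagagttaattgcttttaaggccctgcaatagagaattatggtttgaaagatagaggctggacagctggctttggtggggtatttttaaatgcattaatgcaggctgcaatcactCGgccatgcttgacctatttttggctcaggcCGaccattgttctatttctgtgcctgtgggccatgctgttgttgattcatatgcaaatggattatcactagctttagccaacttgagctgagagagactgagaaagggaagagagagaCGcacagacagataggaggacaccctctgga
Hdac11, chr6:91156565-91156864, plus strand: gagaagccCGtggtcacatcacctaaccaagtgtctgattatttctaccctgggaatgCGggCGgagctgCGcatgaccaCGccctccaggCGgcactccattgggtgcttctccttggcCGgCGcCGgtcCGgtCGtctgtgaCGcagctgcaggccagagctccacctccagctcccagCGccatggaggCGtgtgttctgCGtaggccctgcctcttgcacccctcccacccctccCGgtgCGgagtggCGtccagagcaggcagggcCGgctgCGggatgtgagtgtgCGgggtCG
Kdm7a, chr6:39206724-39207023, minus strand: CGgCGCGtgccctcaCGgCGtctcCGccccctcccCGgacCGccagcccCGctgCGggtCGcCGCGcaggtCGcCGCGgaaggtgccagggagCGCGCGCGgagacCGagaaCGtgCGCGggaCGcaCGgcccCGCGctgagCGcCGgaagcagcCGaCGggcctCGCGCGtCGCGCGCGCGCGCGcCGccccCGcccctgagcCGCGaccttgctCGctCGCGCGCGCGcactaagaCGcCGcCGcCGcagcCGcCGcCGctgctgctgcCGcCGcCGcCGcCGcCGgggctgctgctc
Kdm5b, chr1:134559928-134560227, plus strand: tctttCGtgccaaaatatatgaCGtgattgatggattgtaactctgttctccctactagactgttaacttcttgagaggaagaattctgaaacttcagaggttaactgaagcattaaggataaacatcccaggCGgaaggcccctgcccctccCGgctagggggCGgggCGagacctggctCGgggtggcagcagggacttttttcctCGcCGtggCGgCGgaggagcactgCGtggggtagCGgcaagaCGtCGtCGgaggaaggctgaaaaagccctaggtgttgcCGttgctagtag

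The 2 Hdac9 windows hold 0 and 3 CpG, that of Hdac11 22, that of Kdm5b 17 and that of Kdm7a 65. Promoter windows were used for 49 of the 60 genes, 70 windows in all. Chromosome 18, where Hdac3 and Kdm3b lie, was left out for the enzymes. For the remaining genes without a window the promoter table used lists none. The median of the enzymes' windows was 23.0 CpG and 61.8% G and C. Over 32851 windows of all genes, from which no chromosome was left out, it was 7.00 CpG and 52.7%. On either strand the letters GGGCGG were found in 67.1% of the enzymes' windows and 35.7% of all windows, CCAAT in 40.0% and 37.4%, and CACGTG in 8.57% and 7.15%. TATAAA was in 2 of the enzymes' windows, the upstream window of Hdac9 and that of Hdac8, and in 13.6% of all windows. A match is a description of the window only.

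The other class IIa deacetylases were also lower in HD-homo cells, with the exception of Hdac4. Hdac5 measured 47.6, 49.9 and 52.8 CPM in control libraries, against 64.1, 61.1 and 57.9 for HD-het and 22.1, 36.0 and 24.5 for HD-homo. The HD-homo libraries lay below all others, although HD-homo 2 was higher than its 2 fellows (log2 fold change -0.86, standard error 0.146, adjusted p = 4e-04 against control). Hdac7 measured 182, 176 and 172 CPM in control libraries, against 119, 111 and 123 for HD-het and 111, 109.6 and 107 for HD-homo. Hdac7, the most abundant of the class, was lower in all libraries of both HD lines (log2 fold change -0.70, standard error 0.0550, adjusted p = 9.13e-07 in HD-homo and log2 fold change -0.58, standard error 0.0550, adjusted p = 3.96e-06 in HD-het cells against control). Hdac4 measured 33.7, 31.7 and 34.3 CPM in control libraries, against 52.7, 51.8 and 45.5 for HD-het and 31.7, 22.0 and 30.4 for HD-homo. Hdac4 was highest in HD-het cells (log2 fold change 0.59 against control, adjusted p = 0.0012), whereas in HD-homo against control cells its log2 fold change of -0.25 missed the threshold (adjusted p = 0.1), and 22.4% of its exons overlap a gene on the opposite strand. In all, 3 of 4 class IIa genes fell in HD-homo cells, while 2 rose and 1 fell in the HD-het line (all tested genes, 28.9% lower in HD-homo, and 33.8% higher and 31.4% lower in HD-het).

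Among the deacetylases of classes I and IIb, the largest fall was that of Hdac10 in HD-het cells. Hdac1 was higher in HD-homo cells than in control (log2 fold change 0.33, standard error 0.0730, adjusted p = 0.00266), and 35.3% of the 50-base words of its transcripts also occur in other genes, most in Gm10093, so that its count is uncertain. Hdac8 measured 7.03, 7.08 and 7.20 CPM in control libraries, against 9.39, 9.85 and 8.66 for HD-het and 8.98, 11.03 and 9.10 for HD-homo. Hdac8, an X-linked class I enzyme that deacetylates cohesin, was higher in both HD lines than in every control library (log2 fold change 0.45, adjusted p = 0.00352 in HD-homo and 0.39, adjusted p = 0.00757 in HD-het cells). Hdac10 measured 17.2, 17.2 and 17.1 CPM in control libraries, against 10.1, 8.11 and 9.94 for HD-het and 18.03, 19.8 and 16.05 for HD-homo. Hdac10, a polyamine deacetylase of class IIb, was thus 1.83-fold lower in the HD-het line than in control cells (log2 fold change -0.87, standard error 0.105, adjusted p = 2.49e-05), while HD-homo and control libraries overlapped. Hdac6, which deacetylates tubulin, was at 41.23 ± 1.29, 35.7 ± 1.102 and 49.5 ± 4.85 CPM (control, HD-het, HD-homo), higher in HD-homo (log2 fold change 0.26, adjusted p = 0.0106) and lower in HD-het cells (-0.21, adjusted p = 0.0314). The HD-het call of Hdac6 was lost without control 1, control 2, control 3, HD-het 1 or HD-het 2, and its HD-homo call without the farthest library of each line.

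Among the 7 sirtuins 3 rose and 2 fell in HD-het against control cells, and 2 fell in HD-homo against control cells (all tested genes, 33.8% higher and 31.4% lower, and 29.6% higher and 28.9% lower). Sirt1 measured 53.7, 55.4 and 51.5 CPM in control libraries, against 31.8, 34.6 and 32.8 for HD-het and 41.8, 51.5 and 43.2 for HD-homo. Sirt1, the nuclear enzyme that deacetylates p53 and histones, was lowest in HD-het cells (log2 fold change -0.69, standard error 0.0827, adjusted p = 2.33e-05 against control). Its call in HD-homo against control cells (log2 fold change -0.23, adjusted p = 0.0292) rested on overlapping libraries and was lost without control 1, control 2, HD-homo 1 or HD-homo 3. Sirt3 measured 2.58, 2.17 and 3.62 CPM in control libraries, against 4.82, 4.27 and 4.76 for HD-het and 3.68, 3.34 and 3.49 for HD-homo. Sirt4 measured 4.95, 4.82 and 4.26 CPM in control libraries, against 7.98, 7.07 and 7.22 for HD-het and 5.52, 5.11 and 4.80 for HD-homo. Sirt3 and Sirt4, which act in mitochondria, were highest in the HD-het line (log2 fold change 0.73, standard error 0.172, adjusted p = 0.00297 for Sirt3 and log2 fold change 0.67, standard error 0.111, adjusted p = 0.000291 for Sirt4, HD-het against control). For Sirt3 the difference between the HD lines had an adjusted p of 0.049 and was lost in 12 of 20 alternative fits, among them DESeq2's Wald test and those without any single HD-het or HD-homo library. Sirt3 had only 73 to 171 counts, and 12.7% of its exons overlap genes on the opposite strand. Sirt2, mainly cytoplasmic, was at 43.5 ± 1.34 CPM in control, 50.2 ± 2.49 in HD-het and 35.6 ± 0.865 in HD-homo cells, and its HD-het call was lost without control 1. The second fall in HD-het cells was that of Sirt7 (log2 fold change -0.23, adjusted p = 0.0269), which was lost without control 1, control 2, control 3, HD-het 2 or HD-het 3, leaving 1.

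The acetyltransferases were lower mainly in the HD-het line: 6 of 10 fell and 2 rose there against control (median log2 fold change -0.22, 0.025 over all tested genes), whereas in HD-homo cells 1 fell and 2 rose (median -0.07, 0.0077 over all tested genes). Over all tested genes the shares were 33.8% higher and 31.4% lower in HD-het and 29.6% higher and 28.9% lower in HD-homo cells. Ep300 measured 176, 175 and 179 CPM in control libraries, against 114, 120.4 and 114 for HD-het and 183, 177 and 179 for HD-homo. Ep300, which acetylates H3K27 at enhancers, was 1.52-fold lower in HD-het cells with little spread between libraries (log2 fold change -0.60, standard error 0.0487, adjusted p = 1.2e-06), while control and HD-homo libraries overlapped. Kat2a measured 119, 124 and 125 CPM in control libraries, against 72.2, 67.9 and 88.0 for HD-het and 122, 104 and 122 for HD-homo. Kat2b measured 37.1, 35.4 and 34.8 CPM in control libraries, against 47.6, 50.8 and 46.1 for HD-het and 22.9, 28.7 and 20.6 for HD-homo. Kat2a and Kat2b, close relatives that each serve as the acetyltransferase of SAGA-type complexes, moved apart: Kat2a was lower in HD-het cells (log2 fold change -0.69, standard error 0.0955, adjusted p = 7.36e-05), and Kat2b was higher in HD-het (log2 fold change 0.43, standard error 0.104, adjusted p = 0.00369) and lower in HD-homo cells (log2 fold change -0.57, standard error 0.106, adjusted p = 0.000771). Kat6b measured 12.3, 12.7 and 13.5 CPM in control libraries, against 11.7, 11.9 and 11.8 for HD-het and 18.3, 19.1 and 15.5 for HD-homo. Kat6b, a MYST-family enzyme mutated in developmental disorders, was higher in HD-homo cells (log2 fold change 0.46, standard error 0.0901, adjusted p = 0.00112). The other rise in HD-homo cells, that of Kat14 (log2 fold change 0.23, adjusted p = 0.0331), was lost without control 1, control 2, control 3, HD-homo 1 or HD-homo 3, which left 1, and 12.96% of the 50-base words of its transcripts also occur in other genes. Kat6a, the relative of Kat6b, fell by 0.49 on the log2 scale in HD-het cells (adjusted p = 1.45e-05). Crebbp was at 67.5 ± 2.59, 57.6 ± 4.23 and 64.4 ± 7.19 CPM (control, HD-het, HD-homo), and its HD-het call (adjusted p = 0.0321) was lost without control 1, control 3, HD-het 2 or HD-het 3.

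Of the 5 H3K4 methyltransferases, Kmt2d changed most in HD-het against control cells, where 2 fell and 1 rose (all tested genes, 33.8% higher and 31.4% lower). Kmt2d measured 219, 209 and 192 CPM in control libraries, against 126, 117 and 101 for HD-het and 215, 232 and 153 for HD-homo. Kmt2d, the main enhancer H3K4 methyltransferase, was lower in each HD-het library than in any other library (log2 fold change -0.85, standard error 0.136, adjusted p = 0.000207 against control), and HD-homo 3 lay apart from HD-homo 1 and 2. Its partner in that role, Kmt2c, moved the other way, with 36.1 ± 2.12 CPM in control and 45.8 ± 7.13 in HD-het cells (log2 fold change 0.34, adjusted p = 0.0184), a call lost without control 3, HD-het 1 or HD-het 2. The second fall, that of Kmt2b (log2 fold change -0.27, adjusted p = 0.0233), was lost without control 1, control 2, HD-het 2 or HD-het 3, which left 1. In HD-homo against control cells Kmt2d missed the threshold (log2 fold change -0.05, adjusted p = 0.779), while Kmt2a fell (-0.33, adjusted p = 0.0267), a call lost in 3 of 20 alternative fits, and Kmt2e rose (0.24, adjusted p = 0.00728).

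The 6 H3K9 methyltransferases were mostly lower in HD-het cells, where 5 fell and 1 rose against control, while in HD-homo cells 2 fell and 1 rose (all tested genes, 33.8% higher and 31.4% lower, and 29.6% higher and 28.9% lower). Of the 5 falls, those of Ehmt2 and Setdb2 were each lost in 6 of 20 alternative fits, and both were lost without control 1, HD-het 1 or HD-het 2, which left 3. Of the 2 falls in HD-homo cells, that of Setdb1 (log2 fold change -0.15, adjusted p = 0.04) was lost in 10 of 20, which left 1 without control 1, control 2, control 3, HD-het 1, HD-homo 1 or HD-homo 2. Suv39h2 measured 25.7, 27.1 and 24.8 CPM in control libraries, against 16.5, 16.7 and 18.3 for HD-het and 28.2, 28.0 and 27.9 for HD-homo. Suv39h2 and its relative Suv39h1, which trimethylate H3K9 in heterochromatin, fell in HD-het cells by 0.59 and 0.42 on the log2 scale (adjusted p = 2.01e-05 and 0.00112) and were higher in HD-homo cells than in HD-het (log2 fold change 0.71, standard error 0.0690, adjusted p = 3.26e-06 for Suv39h2). Of the exons of Suv39h1, 14.6% overlap a gene on the opposite strand. Ehmt2, which dimethylates H3K9, was at 163 ± 7.93, 147 ± 5.64 and 122 ± 4.52 CPM (control, HD-het, HD-homo), and its log2 fold change in HD-homo against control cells was -0.42 (adjusted p = 8.47e-05). Its partner Ehmt1 went the opposite way in HD-homo cells, with a log2 fold change of 0.21 (adjusted p = 0.0112). Ehmt1 was also higher in HD-het cells than in control (log2 fold change 0.22, adjusted p = 0.00953). That call was lost without the third libraries of control and HD-het. Among the other methyltransferases, Ezh1 measured 15.99, 14.4 and 14.6 CPM in control libraries, against 17.8, 18.1 and 16.4 for HD-het and 19.5, 20.3 and 18.3 for HD-homo. Ezh1, the relative of Ezh2 in PRC2, was higher in HD-homo cells than in control (log2 fold change 0.37, standard error 0.0795, adjusted p = 0.00198). It was also higher in HD-het cells than in control (log2 fold change 0.22, adjusted p = 0.0311), a call lost in 6 of 20 alternative fits. The 2 HD lines did not differ past the threshold (adjusted p = 0.103).

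The lysine demethylases included the largest rises against control. Kdm7a measured 8.55, 9.78 and 7.71 CPM in control libraries, against 21.0, 23.7 and 17.2 for HD-het and 18.4, 28.0 and 18.5 for HD-homo. Kdm7a, which removes methyl groups from H3K9 and H3K27, was higher in each library of both HD lines than in every control library (log2 fold change 1.32, standard error 0.179, adjusted p = 7.67e-05 in HD-homo and log2 fold change 1.25, standard error 0.180, adjusted p = 9.82e-05 in HD-het cells). HD-homo 2 lay above HD-homo 1 and 3. Kdm5b measured 30.1, 29.9 and 24.0 CPM in control libraries, against 72.7, 75.5 and 60.9 for HD-het and 34.2, 28.5 and 32.0 for HD-homo. Kdm5b, an H3K4 demethylase, was 2.49-fold higher in HD-het than in control cells (log2 fold change 1.31, standard error 0.111, adjusted p = 1.74e-06), while HD-homo and control libraries overlapped (log2 fold change 0.17, adjusted p = 0.211). Kdm1a measured 125, 124 and 120.1 CPM in control libraries, against 166, 164 and 154 for HD-het and 183, 159 and 165 for HD-homo. Kdm1a, the flavin-dependent H3K4 demethylase of the CoREST complex, was higher in both HD lines (log2 fold change 0.46, standard error 0.0623, adjusted p = 7.55e-05 in HD-homo and log2 fold change 0.39, standard error 0.0623, adjusted p = 0.000214 in HD-het cells). Of the 14 tested demethylases 8 rose and 2 fell in HD-het against control cells, and 3 rose and 3 fell in HD-homo against control cells (all tested genes, 33.8% higher and 31.4% lower, and 29.6% higher and 28.9% lower). Without HD-homo 1, Kdm3a, Kdm4c and Kdm6b also passed as higher in HD-homo cells, as did Kdm3a and Kdm4c with the block on the replicate number. The fall of Kdm2a in HD-homo cells was lost without control 1, control 2 or HD-homo 3. The H3K36 demethylase Kdm2a fell by 0.51 on the log2 scale in HD-het cells (adjusted p = 5.18e-06), and Kdm4b, which acts on H3K9, fell by 0.44 in HD-homo cells (adjusted p = 0.00039).

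**Figure D3:**
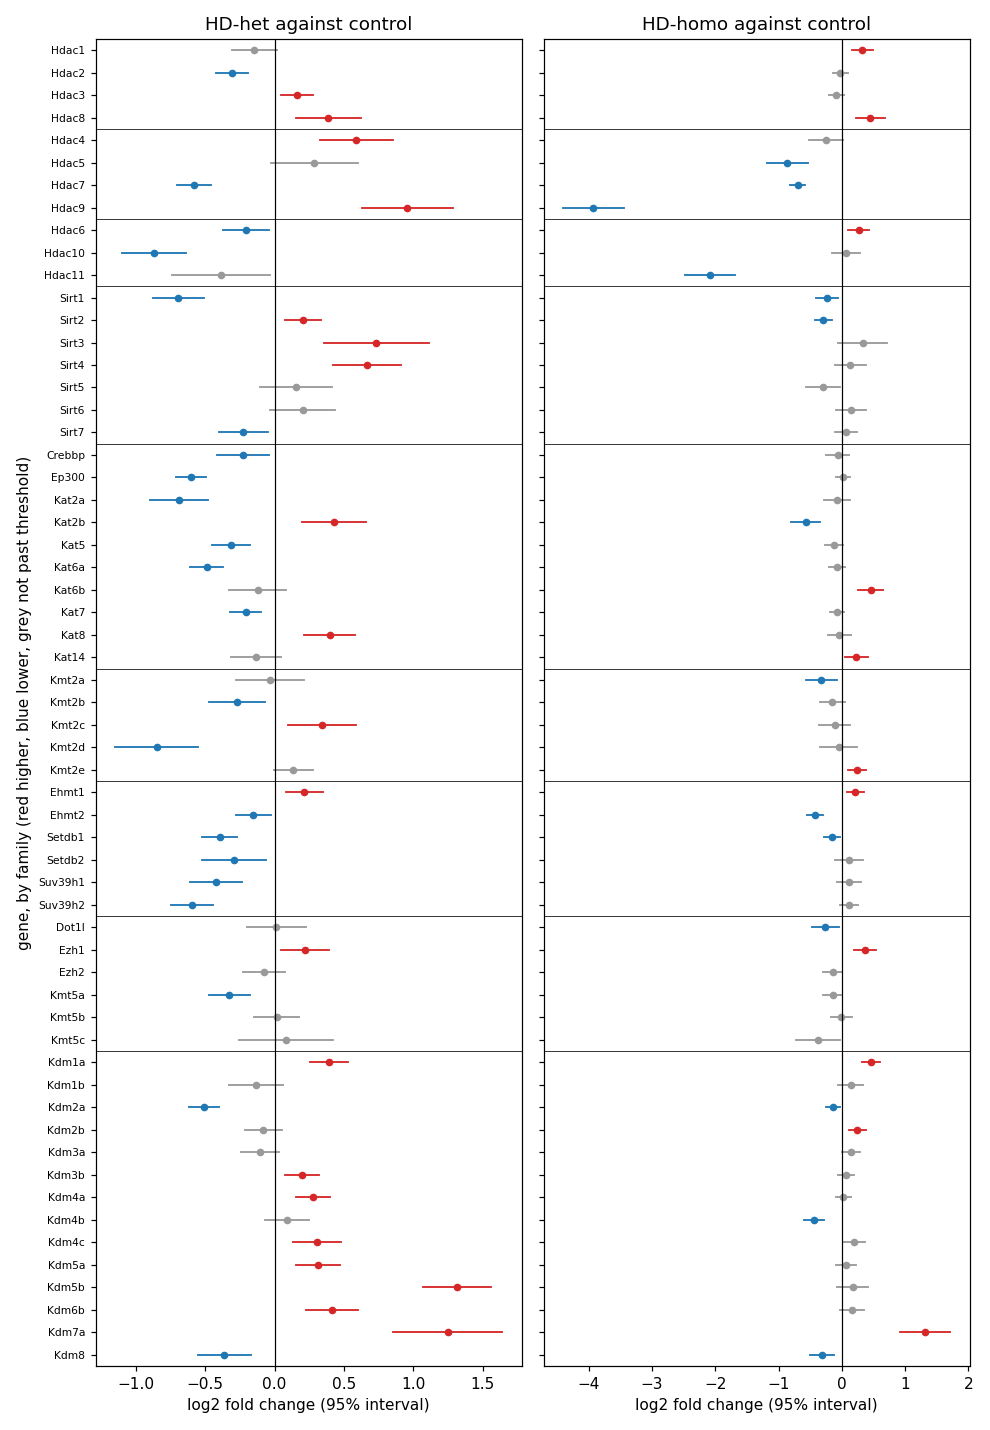
Log2 fold change of 59 histone enzymes with its 95% interval in HD-het (left) and HD-homo cells (right) against control, with a separate horizontal scale in each panel; red is higher and blue lower past an adjusted p of 0.05, grey is not past it. HD-het cells show 42 coloured points spread over both directions, and HD-homo cells 25, with Hdac9 and Hdac11 farthest to the left.

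The order of the 3 lines was set beside that of all tested genes. In 14 of 59 enzymes HD-het was higher than both other lines, with both of its comparisons past the threshold, as in 22.7% of all tested genes, and in 17 it was lower than both (22.3%). As shares of the enzymes these were 23.7% and 28.8%. Without control 3, HD-het 3 and HD-homo 2 the counts were 14 and 16; without HD-het 1 the first was 9, and without HD-het 2 the second was 11. A stepwise rise from control through HD-het to HD-homo cells was found for 0 enzymes by edgeR and by DESeq2's Wald test alike (3.63% of all genes), and for 0 at an unadjusted p under 0.05 in both steps. A stepwise fall was found for 1, Ehmt2 (3.1%), whose HD-het call against control (log2 fold change -0.15, adjusted p = 0.036) was lost without control 1, control 3, HD-het 1 or HD-het 2; at an unadjusted p under 0.05 in both steps 2 enzymes fell stepwise. Against control, 4 enzymes were past the threshold in opposite directions in the 2 HD lines, Hdac9, Hdac6, Kat2b and Sirt2, against 14.5% of all genes; without control 1 the HD-het calls of Hdac6 and Sirt2 were lost, which left 2. The comparisons share the libraries of a line and are not independent.

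**Figure D4:**
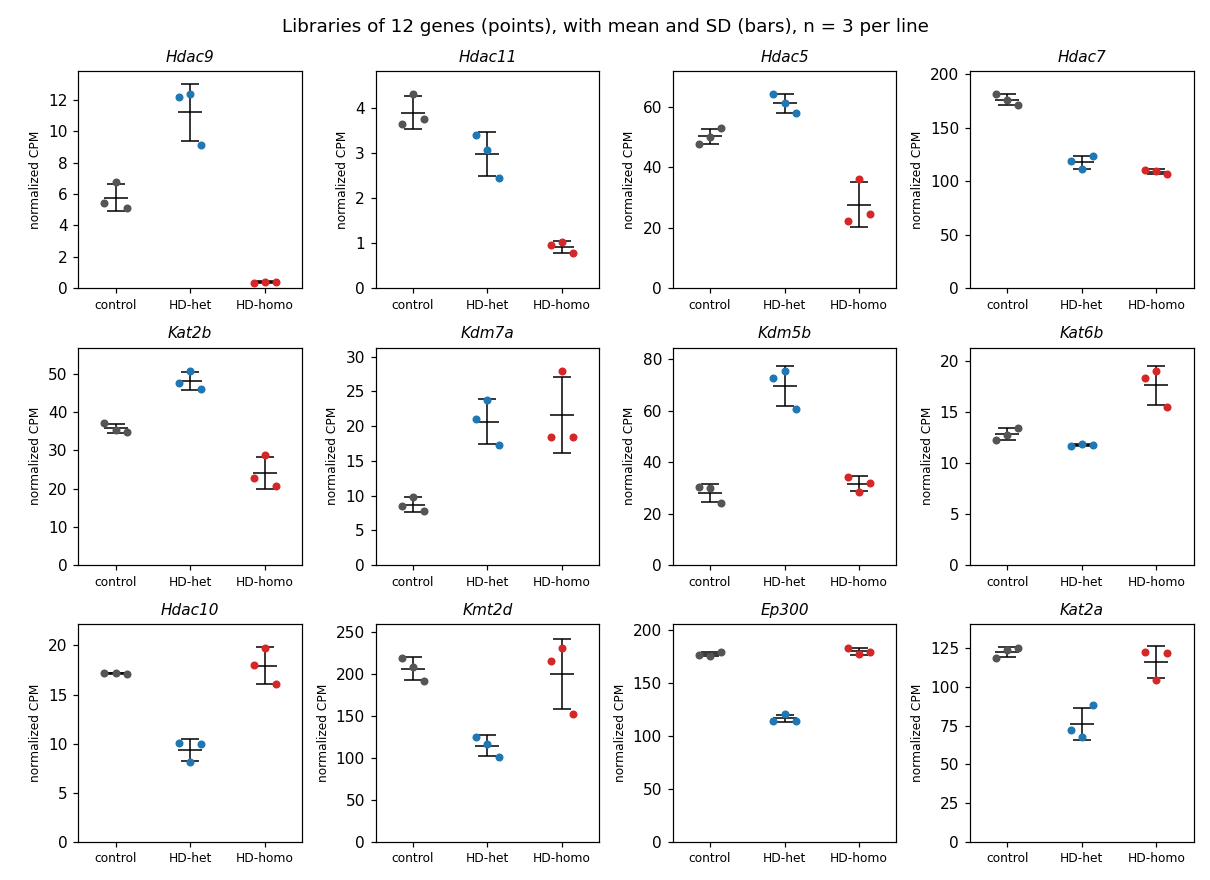
Normalized CPM of 12 histone enzymes in the 9 libraries (points), with mean and SD for each line (bars, n = 3); every vertical axis starts at 0. The HD-homo libraries of Hdac9 lie between 0.307 and 0.418 CPM, under all control and HD-het libraries, and in Hdac10, Kmt2d, Ep300 and Kat2a the HD-het libraries lie under all others.

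Related enzymes of 18 pairs were set side by side, as a description with no test. Hdac7 and Hdac9 differed most, with a log2 fold change of Hdac7 that exceeded that of Hdac9 by 3.23 in HD-homo against control cells and a difference, Hdac7 minus Hdac9, of -1.54 in HD-het against control cells. Kat2a minus Kat2b gave -1.12 in HD-het against control and 1.61 in HD-homo against HD-het cells. In Kmt2c and Kmt2d, past the threshold in opposite directions in the HD-het line, the difference was 1.19. Suv39h1 and Suv39h2 stayed close in HD-homo against control cells, with log2 fold changes of 0.11 and 0.11, as did Crebbp and Ep300 with -0.07 and 0.02.

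The protein complexes in which these enzymes work were followed through lists of their other subunits. Of 21 corepressor subunits that carry class I deacetylases, 6 rose and 8 fell in HD-homo and 5 rose and 8 fell in HD-het against control cells. In HD-homo cells the extremes were Chd3 of NuRD and Sap30 of the Sin3 complex (log2 fold changes 0.67, adjusted p = 1.14e-05, and -1.07, adjusted p = 1.59e-07), whereas the largest fall in the HD-het line was Rcor2 of CoREST (-1.11, adjusted p = 5.45e-05). Of 10 PRC2 subunits, 3 rose and 1 fell in HD-homo and 1 rose and 4 fell in HD-het cells, with Aebp2 the largest rise in both lines (0.65, adjusted p = 1.8e-06, and 0.22, adjusted p = 0.00557) and Epop (-0.63, adjusted p = 0.000225) and Phf19 (-0.61, adjusted p = 5.21e-05) the largest falls in HD-homo and HD-het cells. Of 10 COMPASS subunits, which serve the H3K4 methyltransferases, 4 fell in HD-homo and 6 fell in HD-het cells, led by the shared core subunit Dpy30, with 57.6 ± 5.20, 31.8 ± 3.56 and 35.1 ± 0.743 CPM (control, HD-het, HD-homo). Of 27 subunits of acetyltransferase complexes, 7 rose and 6 fell in HD-homo and 5 rose and 10 fell in HD-het cells. Tada3, an adaptor of SAGA, was the largest rise in both HD lines (0.56, adjusted p = 3.84e-05, and 0.93, adjusted p = 6.74e-07), and Sgf29 of SAGA in HD-homo (-0.72, adjusted p = 6.36e-05) and Kansl2 of the NSL complex in HD-het cells (-1.01, adjusted p = 3.6e-07) were the largest falls. Over all tested genes the shares were 29.6% higher and 28.9% lower in HD-homo and 33.8% higher and 31.4% lower in HD-het cells, and differences between the lists were not tested.

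Proliferation markers were lowest in HD-het cells as a sum. The summed level of 13 such markers was 3659, 3710.2 and 3659.9 CPM in control libraries, against 3006, 3033 and 3220.2 for HD-het and 3959.8, 4122 and 3947 for HD-homo, with Top2a, a topoisomerase of dividing cells, as the most abundant and none at 0. Of the 13, 2 rose and 7 fell in HD-het and 6 rose in HD-homo against control cells, with Cdk1 the largest fall (log2 fold change -0.72, standard error 0.0627, adjusted p = 2.21e-06, HD-het against control) and Mki67 the largest rise in HD-homo cells (log2 fold change 0.49, standard error 0.110, adjusted p = 0.00251). Mki67 also rose in HD-het cells (log2 fold change 0.40, adjusted p = 0.00716), against the direction of the sum. The shares of all tested genes were 33.8% higher and 31.4% lower in HD-het and 29.6% higher and 28.9% lower in HD-homo cells. Whether proliferation takes part in the differences in histone enzymes between the lines was not tested.

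For some of these genes the count is less certain than its error. Kmt5b and Kmt5c, which methylate H4K20, are also listed under their older symbols Suv420h1 and Suv420h2, which hold 46.6% and 54.7% of the sum of both listings, and whether reads were split between the listings or counted on both cannot be told. With the listings summed, Kmt5c passed the threshold in HD-homo against control cells, which it missed as listed (log2 fold change -0.38, adjusted p = 0.0563). Of the 50-base words of their transcripts, over 10% also occur in other genes for Hdac1, Kat14, Kdm4d and Sirt5.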

How the data were processed

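Poly(A)-selected RNA of 9 samples, 3 from each line, was made into libraries with a directional kit. The authors deposited whole-number counts per gene symbol, without normalization; the submitters' processing notes name cutadapt, Bowtie 1.1.2, RSEM 1.3.0, DESeq2 and the builds GRCm38.p5 and mm10, without their roles, so the counts may be rounded RSEM estimates. All 9 value columns were used. Dates stand where symbols should be for 26 rows, which were kept.

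In R 4.3.3 with edgeR 4.0.16 and limma 3.58.1, genes were kept by filterByExpr (minimum count 10), normalized by TMM (factors 0.984 to 1.03), fitted with 1 mean per line over all 9 libraries and compared by two-sided quasi-likelihood tests with Benjamini-Hochberg adjustment over all 13508 tested genes. CPM uses the normalized totals of the tested genes, and fold changes in the text are ratios of mean CPM. Tested on simulated data with known fold changes, the fit recovered their size but called only part of the changed genes, fewer where the change was smaller; a limit set beforehand for the share called was not met and was dropped. The members and lists were chosen with earlier results of these data known, and Kat14 joined the acetyltransferases after the table was opened. Values in every library are given for the 5 largest rises and 5 largest falls past the threshold in each comparison whose libraries did not overlap and whose higher line reached 1 CPM, for members that went opposite ways in the HD lines and for pairs that did so, each with an absolute log2 fold change of at least 0.5; from the other lists, large rises and falls in each HD line are named. Hdac4, Hdac6, Kdm4b, Kmt2c and other members named beyond that rule were chosen after their values were seen.

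A count of 3 is the floor, between 0.0710 and 0.101 CPM, and covers counting error only. Gene models are from GENCODE release M21 (GRCm38), matched for 60 of 60 genes. Alternatives were DESeq2's size factors, library totals, the Wald test of DESeq2 1.42.0, other filters, only the 2 lines compared, a block on the replicate number, a prior count of 2, stricter thresholds, older listings summed, and libraries left out.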

Additional observations from a re-analysis of the deposited data

Results flagged for a closer look

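In 4 enzymes the HD lines differed from control in opposite directions, which is why they are named here; the difference between the HD lines was also tested, but a low p then follows in part from that choice and is no separate support. Hdac9 changed on the log2 scale by -3.92 (HD-homo) and 0.96 (HD-het) against control, and differed by -4.88 for HD-homo against HD-het (adjusted p = 4.42e-09, edgeR's quasi-likelihood test). Kat2b changed on the log2 scale by -0.57 (HD-homo) and 0.43 (HD-het) against control, and differed by -0.998 for HD-homo against HD-het (adjusted p = 6.26e-06, edgeR's quasi-likelihood test). Sirt2 changed on the log2 scale by -0.29 (HD-homo) and 0.20 (HD-het) against control, and differed by -0.49 for HD-homo against HD-het (adjusted p = 2.05e-05, edgeR's quasi-likelihood test). Hdac6 changed on the log2 scale by 0.26 (HD-homo) and -0.21 (HD-het) against control, and differed by 0.47 for HD-homo against HD-het (adjusted p = 0.000164, edgeR's quasi-likelihood test). Without control 1 the HD-het calls of Hdac6 and Sirt2 were lost, which left 2 of the 4. Each HD line is 1 line, so that the number of expanded alleles and the line cannot be told apart. Single outlying libraries were not tested for.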

How the results depend on the processing

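The 30 calls of the largest rises and falls (10 in each comparison) kept their direction and their side of the threshold under all alternative fits. Of the 25, 42 and 45 enzymes past the threshold in HD-homo against control, HD-het against control and HD-homo against HD-het cells, 18, 30 and 35 stayed past it in all 20 alternative fits, and none changed sign. Lost in at least 1 fit were Dot1l, Hdac6, Kat14, Kdm2a, Kmt2a, Setdb1, Sirt1 in the first comparison, Crebbp, Ehmt1, Ehmt2, Ezh1, Hdac3, Hdac6, Kdm3b, Kmt2b, Kmt2c, Setdb2, Sirt2, Sirt7 in the second and Dot1l, Kat5, Kat7, Kdm1b, Kdm3b, Kdm6b, Kmt2a, Kmt5a, Kmt5c, Sirt3 in the third. In turn, 11, 6 and 3 enzymes that missed the threshold passed it in at least 1 fit, among them Hdac11 in HD-het against control cells in 8 of 20; the cause was not tested. In the same order of comparisons, the counts were 8 higher and 9 lower, 16 and 16, and 19 and 16 at an adjusted p under 0.01, 1 higher and 5 lower, 6 and 8, and 7 and 8 for absolute log2 changes from 0.5 up, and 1 higher and 2 lower, 2 and 0, and 0 and 4 for those from 1 up, stricter by construction. HD-het highest, HD-het lowest, stepwise rise and stepwise fall were then counted 8, 11, 0 and 0, 4, 5, 0 and 0, and 1, 0, 0 and 0 times. Stepwise fall was counted 2 times with DESeq2's size factors, with library totals only and with at least 10 counts in every library, and 0 times without the third libraries of control and HD-het and without the farthest library of each line.

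Leaving out each library in turn gave 10 to 13 enzymes higher and 9 to 14 lower in HD-homo against control, 17 to 21 and 16 to 23 in HD-het against control, and 20 to 23 and 16 to 22 in HD-homo against HD-het cells; HD-het highest was counted 9 to 13, HD-het lowest 11 to 16 and stepwise fall 0 to 2 times. Without the third libraries of control and HD-het the 6 counts were 12 higher and 13 lower, 16 and 17, and 21 and 21.

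Deviations of same-numbered libraries from their line means correlated across genes, which are not independent, with r of 0.0419, 0.0544 and 0.0304 (replicates 1, 2, 3) for HD-homo and control, 0.0823, 0.290 and 0.212 for HD-het and control and 0.0492, 0.231 and 0.168 for HD-homo and HD-het, so that the numbers were not taken to pair the samples, although each library correlated best with its own number in the other line. With the replicate block the counts were 13 higher and 18 lower, 22 and 23, and 23 and 22, and a stepwise fall was counted 2 times.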

Other observations

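Histone-modifying genes outside the symbol rule also differed between the lines. All 9 histone arginine methyltransferases were past the threshold as lower in HD-het cells than in control (quasi-likelihood test of edgeR, Benjamini-Hochberg adjusted; median log2 fold change -0.36, 0.025 over all tested genes), while 2 rose and 2 fell in HD-homo cells; Prmt6, which methylates H3R2, was the largest fall in both lines (log2 fold change -0.50, adjusted p = 0.000118, and -0.42, adjusted p = 0.000458), and Prmt7 the largest rise in HD-homo cells (0.49, adjusted p = 0.00556). Over all tested genes, the shares past the threshold were 33.8% higher and 31.4% lower in HD-het and 29.6% higher and 28.9% lower in HD-homo cells, to be set beside the counts of every list here. Of 26 tested histone lysine enzymes with other symbols, 7 rose and 4 fell in HD-homo and 7 rose and 12 fell in HD-het against control cells, with Riox2 (log2 fold change 0.74, adjusted p = 8.34e-05) and Setd7 (log2 fold change -0.45, adjusted p = 0.000235) at the ends in HD-homo and Smyd4 (log2 fold change 0.93, adjusted p = 8.84e-06) and Smyd5 (log2 fold change -0.48, adjusted p = 0.000738) in HD-het cells. Riox2 is also listed under its older symbol Mina, which holds 51.0% of the sum of both listings, so its count is uncertain. Of 18 tested readers of acetylated or methylated lysine, 5 rose and 7 fell in HD-homo and 4 rose and 10 fell in HD-het against control cells, with Brdt (log2 fold change 1.21, adjusted p = 0.000145), at 1.08 ± 0.247 CPM in control cells, and L3mbtl3 (log2 fold change -1.25, adjusted p = 6.52e-07) at the ends in HD-homo cells and Brdt (log2 fold change 1.04, adjusted p = 0.000416) and Cbx7 (log2 fold change -1.17, adjusted p = 6.49e-06) in HD-het cells. In HD-het cells E2f1 was the largest rise among the proliferation markers (0.45, adjusted p = 0.000529).

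Further cell type markers were counted in the same way. Of 4 tested general neuron markers, 2 fell in HD-homo and 1 rose and 1 fell in HD-het against control cells, and the sum over the list was 117, 121 and 101 CPM in control libraries, against 117, 117 and 111 for HD-het and 89.9, 91.4 and 115 for HD-homo, with Map2 the highest of the list in each line. Of 2 tested astrocyte markers, 2 rose in HD-homo and 1 fell in HD-het against control cells, and the sum over the list was 2.77, 2.80 and 3.01 CPM in control libraries, against 1.0997, 1.34 and 1.59 for HD-het and 12.8, 18.6 and 14.7 for HD-homo, with Slc1a3 the highest of the list in each line. Of 3 tested microglia and leukocyte markers, 1 rose and 1 fell in HD-homo and 1 rose and 1 fell in HD-het against control cells, and the sum over the list was 16.1, 14.7 and 12.4 CPM in control libraries, against 45.8, 42.9 and 53.0 for HD-het and 14.6, 13.5 and 13.3 for HD-homo, with Tmem119 the highest of the list in each line. Of 2 tested endothelial markers, 1 rose and 1 fell in HD-het against control cells, and the sum over the list was 0.809, 0.773 and 1.08 CPM in control libraries, against 1.55, 1.34 and 0.839 for HD-het and 1.01, 1.54 and 1.40 for HD-homo, with Kdr the highest of the list in each line. At 0 in all libraries were Aif1 of the microglia and leukocyte list and Cldn5 of the endothelial list. Among the changes past the threshold were Nefm (log2 fold change -4.65, adjusted p = 1.81e-05), Slc1a3 (log2 fold change 2.70, adjusted p = 9.4e-07), Mbp (log2 fold change 3.37, adjusted p = 2.28e-05), Csf1r (log2 fold change 1.89, adjusted p = 3.8e-05) and P2ry12 (log2 fold change -3.16, adjusted p = 0.00119) in HD-homo cells, and Nefm (log2 fold change -7.06, adjusted p = 6.76e-06), Tubb3 (log2 fold change 0.26, adjusted p = 0.00983), Slc1a3 (log2 fold change -1.80, adjusted p = 0.000223), Tmem119 (log2 fold change 1.80, adjusted p = 2.06e-07), P2ry12 (log2 fold change -1.65, adjusted p = 0.0144), Kdr (log2 fold change 1.04, adjusted p = 0.0101) and Cdh5 (log2 fold change -1.49996, adjusted p = 0.0215) in HD-het cells. Nefm had 0, 1 and 1 counts in the HD-het libraries, under the floor of 3, so the size of its fall there is not measured. In the HD-homo libraries Nefm had 0, 2 and 11 counts and P2ry12 1, 4 and 0, so the sizes of these falls are also uncertain. Of 6 tested markers of striatal projection neurons, 2 rose in HD-homo and 3 rose and 2 fell in HD-het against control cells, with Penk (log2 fold change 0.90, adjusted p = 0.0287), Bcl11b (log2 fold change 1.72, adjusted p = 0.00285) and Rgs9 (log2 fold change -2.16, adjusted p = 0.0103); of 7 neural progenitor markers, 2 rose and 5 fell in HD-homo and 3 rose and 2 fell in HD-het against control cells, with Dlx2 (log2 fold change 0.98, adjusted p = 0.00103), Pax6 (log2 fold change -7.91, adjusted p = 4.99e-12), Nes (log2 fold change 0.67, adjusted p = 0.000627) and Dlx2 (log2 fold change -1.80, adjusted p = 2.23e-05); and of 8 fibroblast and mesenchymal markers, 5 rose and 2 fell in HD-homo and 5 rose and 2 fell in HD-het against control cells, with Pdgfra (log2 fold change 5.87, adjusted p = 2.07e-11), Acta2 (log2 fold change -4.63, adjusted p = 1.54e-08), Tagln (log2 fold change 2.72, adjusted p = 8.4e-06) and Col1a2 (log2 fold change -4.54, adjusted p = 1.33e-10).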
